A study of Rattus with 12 samples.

Results

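Genes that mark nerve cells in general, whatever their transmitter, were followed through the cultures, 9 in all: Tubb3, Rbfox3, Map2, Nefl, Nefm, Stmn2, Snap25, Syt1 and Syn1. They were taken by symbol, with earlier results of these data known, and 9 of 9 were found among the 17337 genes of the table and among the 12271 genes that had enough counts to be tested. RNA came from 12 complex cultures of Sprague Dawley rat cells, 4 per condition, which were untreated (neuron medium alone), 0.01 μM fentanyl (low dose) or 10 μM fentanyl (high dose) for 4 days. All cultures were seeded in wells from commercial primary cortical neurons, astrocytes and oligodendrocyte precursor cells (OPCs), so none was made of neurons alone. Each culture carries a letter, A, G, M and P when untreated, B, H, N and Q when given the low and C, I, O and R when given the high dose, and untreated culture G is given apart from the others. Apart from G, cultures whose letters follow each other resembled one another, and such trios (letter sets) are called here after their untreated culture: the A set holds B and C, the G set H and I, the M set N and O, and the P set Q and R. Neither the labels nor the methods say what the letters stand for.

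Neurons hold their shape with microtubules and neurofilaments. Tubb3 encodes the class III beta-tubulin that is stained with the Tuj1 antibody, Map2 a protein that binds microtubules in dendrites, Stmn2 (SCG10) a tubulin-binding protein of growing axons, and Nefl and Nefm the light and medium neurofilament chains that set the caliber of axons. Rbfox3 encodes the nuclear splicing factor NeuN, a standard label of mature neurons. At the presynaptic terminal, Syn1 (synapsin I) tethers synaptic vesicles, Syt1 (synaptotagmin 1) is the calcium sensor of fast release, and Snap25 is a SNARE protein that brings vesicle and plasma membrane together. In the reference annotation (GRCr8) Nefl and Nefm are neighbouring protein-coding genes. The span of Syn1 overlaps those of Timp1, Araf and an unnamed protein-coding gene. The span of Nefm overlaps an unnamed protein-coding gene and that of Syt1 the gene Brcc3dc. Long noncoding RNA genes overlap Rbfox3, Snap25 and Syt1. The library kit does not mark strand, so reads from shared stretches cannot be told apart. Tubb3 belongs to the beta-tubulin family, whose coding sequences are much alike, and how reads shared between tubulins were counted is not given in the sources used here.

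Values are read counts per sequencing depth, scaled by TMM (CPM), a level for 1 gene that can be compared between cultures but not between genes, since transcript lengths were not used. Total counts were 12059872 to 24813893 per culture. CPM is a share of each library. In these bulk samples, fewer neurons, less RNA per neuron and more RNA from other cells thus cannot be told apart.

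In untreated culture G every one of the 9 genes was at its lowest of the 12 cultures. G lay below each of the other 11 cultures for 9 of 9 members, as it did for 28.4% of all genes tested, and above each of them for 27.7% of all genes. A gap to the mean of untreated A, M and P of more than 3 on the log2(CPM + 1) scale was seen for 7 of 9 members and 2.53% of all genes tested. The count behind the lowest value was small but above the floor of 3 counts, since Rbfox3 had 20 counts in G, with an exact 95% Poisson interval of 12.2 to 30.9 counts that covers counting error only. The other 11 cultures held 714 to 2019 counts of Rbfox3.

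The level in G relative to A, M and P differed between the 9 genes. Rbfox3 was at 1.297 CPM in G and at 74.4 CPM in the mean of A, M and P, so G was at 1.74% of that mean. For Nefl the value was 1.81% (5.19 against 285.9 CPM) and for Snap25 2.72% (19.3 against 707 CPM). For Syt1 it was 3.88% (10.1 against 259 CPM) and for Nefm 4.47% (13.1 against 293 CPM). Syn1 and Stmn2 were higher, at 7.18% each (22.0 against 306 CPM and 26.1 against 363 CPM). The microtubule genes Map2 and Tubb3 were the highest of the 9, at 14.0% (69.1 against 493 CPM) and 28.1% (78.5 against 279.6 CPM). The nuclear, neurofilament and vesicle genes and Stmn2 thus lay lower in G than Map2 and Tubb3, relative to the same 3 cultures. The ratio of Tubb3 to Rbfox3 counts was 60.5 in G and 2.45 to 6.76 in the other cultures. Within the neurofilament pair, the ratio of Nefl to Nefm was 0.40 in G and 0.74 to 1.23 elsewhere. G is a single culture, so these values have no replicate. Measured against H and I, which share its letter set, 1.36% (Nefl) to 24.2% (Tubb3) of the level was present in G.

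**Figure D1:**
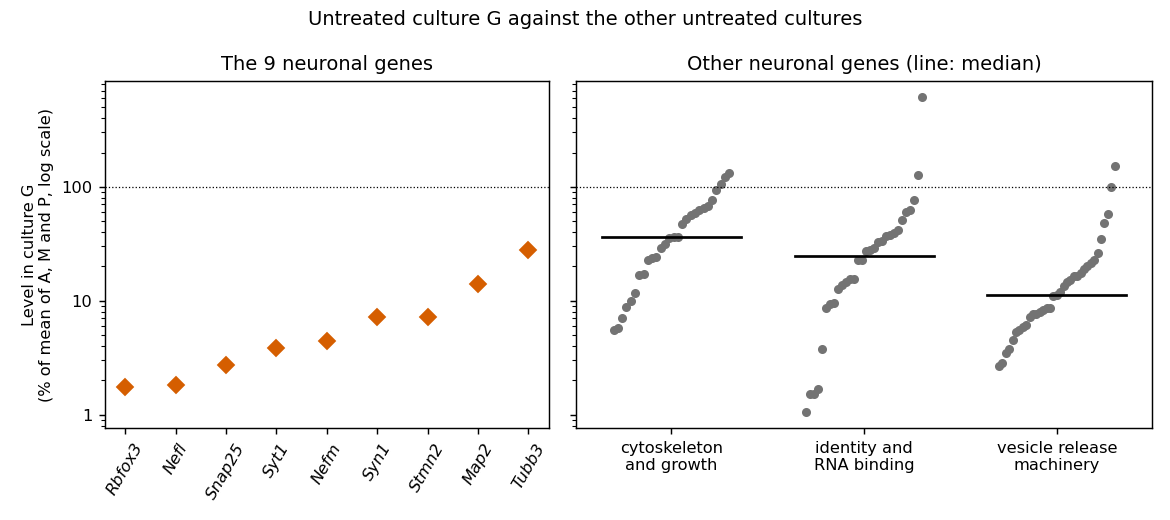
Level of each gene in untreated culture G as a percentage of the mean of untreated A, M and P (log axis), for the 9 neuronal genes (left, ordered by value) and for 3 lists of other neuronal genes (right, a point per gene, sorted within each list, with a line at the median). The 9 genes lie between 1.74% (Rbfox3) and 28.1% (Tubb3), and the medians of the lists lie at 36.1%, 24.96% and 11.2%.

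Genes of 3 other neuronal lists lay in G between 1.05% (Chgb) of the mean of A, M and P and levels above that mean. Of 28 further genes of the neuronal cytoskeleton and growth, 22 were lowest in G, and the median over the 28 was 36.1% of that mean. Kif5a, a kinesin of axonal transport, was at 5.49% and Ina, the neurofilament partner alpha-internexin, at 5.72%, while Tuba1a, an alpha-tubulin that is also made outside neurons, was at 105% and Tubb2b at 122%. Of 30 genes of neuronal identity and RNA binding, 26 were lowest in G, with a median of 24.96%. The granule protein gene Chgb stood at 1.05%, whereas the secreted glycoprotein gene Reln was higher in G (443 against 71.9 CPM). Of 35 genes of the vesicle release machinery, 33 were lowest in G, with a median of 11.2%. Cplx1, a complexin, was at 2.67% and Syn2, a relative of Syn1, at 2.83%, while Syt4 was at 99.1%. The part of cells other than neurons in the levels of these listed genes was not tested. Beside these counts, 28.4% of all genes tested were lowest in G. Over all genes tested the median difference of G from A, M and P was -0.00 on the log2(CPM + 1) scale. TMM scaling takes most genes as unchanged and so draws such a median toward 0. The medians over all genes given further on share this limit.

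Markers of the other seeded cells were present in G. The summed level of 11 astrocyte markers was 8127 CPM in G and 2242 to 11945 CPM in the other 11 cultures, with Gfap at 4293 CPM. The 8 OPC markers in the table had a sum of 2786 CPM in G and 730.3 to 3266 CPM elsewhere, and Pdgfra, the OPC growth factor receptor, was higher in G (335 CPM) than in any other culture (93.3 to 172 CPM). The 10 oligodendrocyte markers summed to 7505 CPM in G and to 3056 to 26298 CPM elsewhere. The 10 microglial markers summed to 1126 CPM (41.7 to 1535 CPM elsewhere), 9 fibroblast and vessel markers to 1763 CPM (66.9 to 2900 CPM elsewhere) and 5 genes of cycling cells to 80.5 CPM (14.5 to 77.1 CPM elsewhere). None of these markers was at 0 in G. Timp1, whose span lies on that of Syn1, had 2473 raw counts in G and 748 to 1834 elsewhere. Araf, which also overlaps Syn1, had 1655 raw counts in G and 1570 to 3063 elsewhere. These counts are not scaled for depth. The part of these genes in the values of the 9 neuronal genes in G was not tested.

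Among the other 11 cultures, the microtubule genes varied as follows. Tubb3 was at 389, 224 and 226 CPM in untreated A, M and P, at 352, 325, 230.6 and 234 CPM in low dose B, H, N and Q, and at 397, 324, 272 and 337 CPM in high dose C, I, O and R. Its conditions overlapped, and the cultures A, B and C were the highest of their doses. Map2 was at 587, 497 and 395 CPM in A, M and P, at 516, 234, 371 and 330.4 CPM in B, H, N and Q, and at 679, 478, 475 and 434 CPM in C, I, O and R. Low dose H was the lowest of the 11, below its set partner I, and 3 of the 4 low dose cultures lay below every other culture except G. Stmn2 was at 484, 293 and 312 CPM in A, M and P, at 465, 444, 286 and 340.3 CPM in B, H, N and Q, and at 470.0, 417, 361 and 352 CPM in C, I, O and R, and the conditions overlapped.

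The neurofilament genes and Rbfox3 were lowest in culture C among the high dose cultures. Nefl was at 226, 359 and 272 CPM in A, M and P, at 223, 376, 306 and 249.9 CPM in B, H, N and Q, and at 209, 389, 359 and 292 CPM in C, I, O and R. Nefm was at 277, 349.8 and 253 CPM in A, M and P, at 254, 364, 248 and 231 CPM in B, H, N and Q, and at 282, 422, 359 and 314 CPM in C, I, O and R. Rbfox3 was at 72.4, 91.4 and 59.4 CPM in A, M and P, at 63.2, 86.0, 74.6 and 60.7 CPM in B, H, N and Q, and at 58.6, 93.5, 88.6 and 83.5 CPM in C, I, O and R. For each of these 3 genes culture I had the highest level at the high dose and H the highest level at the low dose, and the doses overlapped.

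The 3 genes of vesicle release did not share a profile. Snap25 was at 626, 873 and 623 CPM in A, M and P, at 622, 939, 751 and 625 CPM in B, H, N and Q, and at 589.8, 829, 763 and 607 CPM in C, I, O and R. Syt1 was at 329, 268 and 180.2 CPM in A, M and P, at 324, 206, 216 and 175 CPM in B, H, N and Q, and at 329, 303, 277 and 221 CPM in C, I, O and R. Syn1 was at 426, 303 and 189.6 CPM in A, M and P, at 382, 318, 212 and 177 CPM in B, H, N and Q, and at 449, 372, 334 and 266 CPM in C, I, O and R. Snap25 was highest in H, whereas Syt1 and Syn1 were highest in the A set and lowest in Q.

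**Figure D2:**
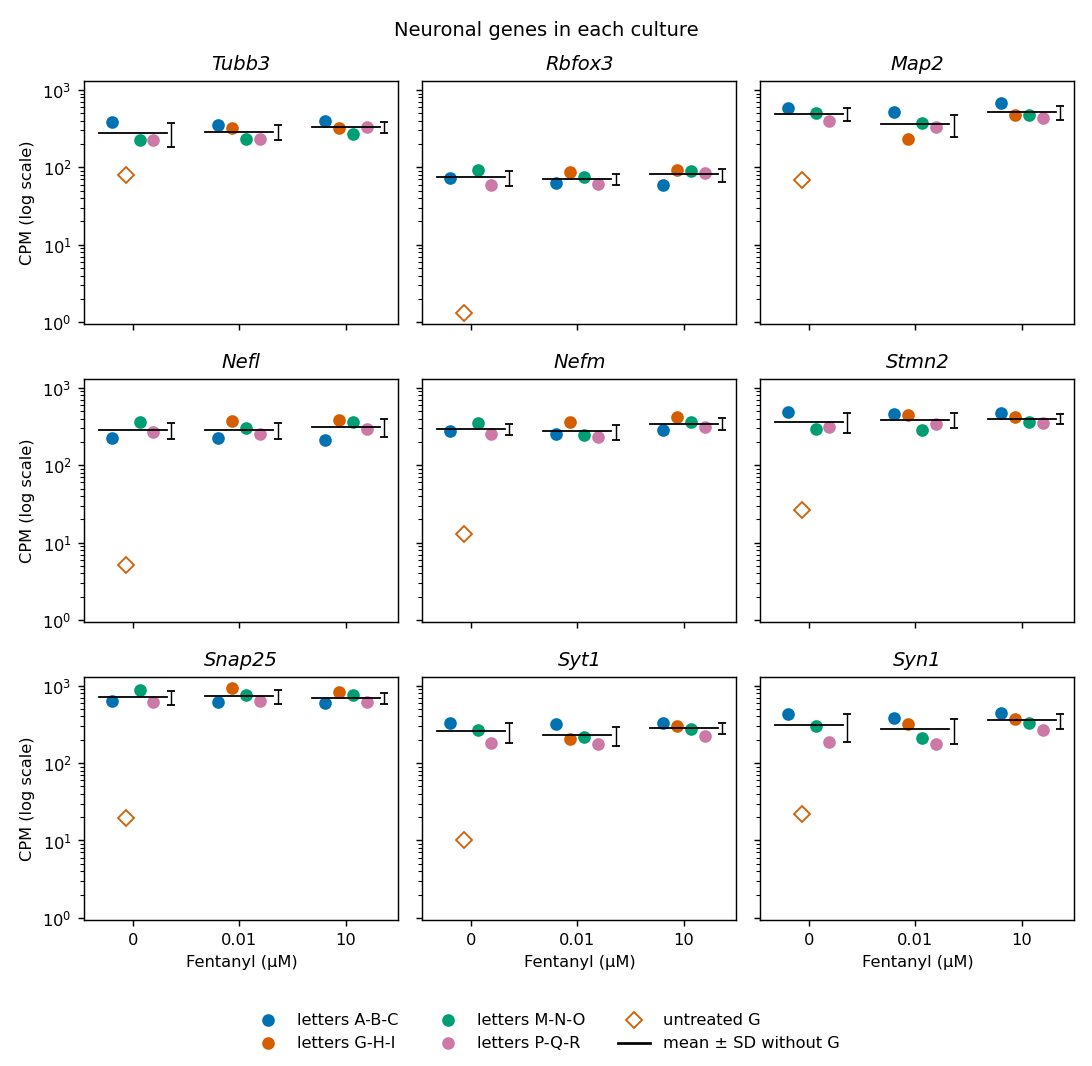
Level of each of the 9 genes (CPM, log axis) in the 12 cultures at 0, 0.01 and 10 μM fentanyl, with a point per culture coloured by letter set, untreated G as an open diamond, and a line and bar for the mean ± SD without G (n = 3 untreated, n = 4 at each dose). G lies below all other points in every panel, from 1.297 CPM for Rbfox3 to 78.5 CPM for Tubb3, and the 3 conditions overlap for each gene.

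Between the A set and cultures H and I, the levels of the 9 genes differed in 2 directions. The A set holds an untreated culture, while H and I do not. The mean level in A, B and C was above that in H and I by a factor of 1.67 for Map2, 1.29 for Syt1, 1.21 for Syn1, 1.17 for Tubb3 and 1.10 for Stmn2. It was below that in H and I for the other four, which were higher in H and I by a factor of 1.74 for Nefl, 1.45 for Nefm, 1.44 for Snap25 and 1.39 for Rbfox3. The M and P sets did not keep to this split. Mean Tubb3 was at 379 CPM in the A set and 324 CPM in H and I, but at 242 and 266 CPM in the M and P sets. Mean Nefm was at 271 CPM in the A set and 266 CPM in the P set. Over the 11 cultures, Pearson's r of log2(CPM + 1) between 2 members ranged from -0.47 (Map2 and Nefl) to 0.93 (Syt1 and Syn1), with a median of 0.26 over 36 pairs. Tubb3 and Stmn2 had an r of 0.92, and Nefl and Snap25 an r of 0.88. With each gene centred within its letter set, the median was 0.54 and r ranged from -0.40 to 0.99, the highest for Nefm and Syn1. These are descriptions over 11 cultures that share letter sets and doses. The members were grouped after their values were seen, and no test was made of the grouping.

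**Figure D3:**
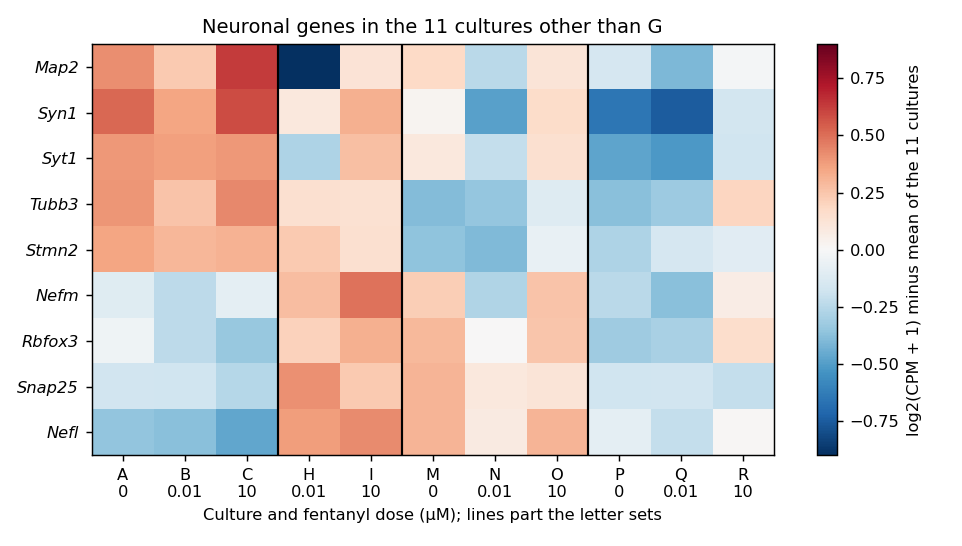
Level of each gene in the 11 cultures other than G as log2(CPM + 1) minus the mean of these cultures (colour), with cultures ordered by letter set and the dose in μM below each letter. Map2, Syn1, Syt1, Tubb3 and Stmn2 are above their mean in A, B and C, and Nefl, Snap25, Rbfox3 and Nefm are below theirs in A, B and C.

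The genes outside the list whose levels most resembled the mean of the 9 over these 11 cultures were Dnm1 (r = 0.98), Amigo1 (0.98), Ncdn (0.98), Exoc6b (0.97), Clstn1 (0.97), Prrt2 (0.96), Chrm3 (0.96) and Dclk3 (0.95). Among 12262 genes 38 had an r above 0.9. Dnm1, the dynamin of synaptic vesicle recycling, was at 500.04 to 856 CPM in these cultures and at 54.3 CPM in G, which did not enter the correlation. Chrm3, a muscarinic acetylcholine receptor, was at 21.5 to 52.3 CPM and at 0.84 CPM in G. Exoc6b was at 69.5 to 94.6 CPM and at 62.1 CPM in G, which was 78.3% of the mean of A, M and P.

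The first comparison asked whether neuronal transcripts differed between low dose and untreated cultures. Genes were called at an adjusted p under 0.05 and a change beyond 0.5 on the log2 scale. No member was called (0 of 9, beside 0% of the 12271 genes tested), and the smallest adjusted p over all genes was 0.9999 (edgeR quasi-likelihood test). An unadjusted p under 0.05 was reached by 0 of 9 members and 0.733% of all genes (90 genes), and DESeq2 called 0 genes. With all 12 cultures, 8 of the 9 log2 fold changes were above 0, from -0.15 (Map2, SE 0.31) to 0.63 (Nefl, SE 0.56), with a median of 0.35 beside 0.01 over all genes tested. The mean level of Rbfox3 was 71.1 ± 11.6 CPM (SD, n = 4) at the low dose, 56.1 ± 38.8 CPM (n = 4) in untreated cultures with G and 74.4 ± 16.1 CPM (n = 3) without it. The position of the untreated mean thus depended on G.

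Without G most members lay lower in the low dose culture than in its untreated partner in the A and M sets. Lower were 9 of 9 genes in B than in A, 8 of 9 in N than in M, and 5 of 9 in Q than in P. The median differences were -0.12, -0.29 and -0.04 on the log2(CPM + 1) scale. Of all genes tested, 49.7%, 51% and 50.2% were higher at the low dose in these sets, with medians of -0.0008, 0.006 and 0.0005. The count in the P set was thus near the share over all genes. Map2, Nefl, Nefm, Syt1 and Syn1 were lower in each of these 3 sets, which is 5 of 9 members beside 13.7% of all genes tested. Map2 differed by -0.18, -0.42 and -0.26, and Syn1 by -0.16, -0.51 and -0.10, in the A, M and P sets. In the G set each of the 9 genes was higher in H than in G, by 1.75 (Map2) to 5.93 (Nefl), as were 49.3% of all genes tested. With the letter sets as a block and G left out, Map2 stood at -0.37 (log2 fold change, SE 0.12) and Nefm at -0.23 (SE 0.09), both with an edgeR adjusted p of 0.644. In that fit 2 of 9 members and 7.54% of all genes had an unadjusted p under 0.05, and 0 genes were called.

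In high dose vs. untreated cultures, 0 of 9 members and 0% of all genes were called. An unadjusted p under 0.05 was reached by 1 of 9 members, Stmn2, beside 1.19% of all genes (146 genes), at 0.56 on the log2 scale (SE 0.24, edgeR adjusted p of 0.9999). DESeq2 called 3 genes and no member. The log2 fold change was above 0 for 9 of 9 members, between 0.36 (Map2) and 0.75 (Nefl) with a median of 0.62 beside 0.003 over all genes tested. G was among the untreated cultures of that model, and the RUVs factor fitted in it stood at -2.95 in G and at -0.49 to 0.72 in the other 11 cultures. Without the factor the median of the members was 0.53. Tubb3 was at 332 ± 51.4 CPM (SD, n = 4) at the high dose and at 229 ± 127 CPM in untreated cultures, or 279.6 ± 94.3 CPM (n = 3) without G. Snap25 was at 697 ± 117 CPM at the high dose, 535 ± 363 CPM with G and 707 ± 144 CPM without it.

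In the sets without G, the median difference of the members between high dose and untreated was -0.00 (A set), 0.04 (M set) and 0.29 (P set). Over all genes tested it was 0.002, 0.002 and -0.0006. Tubb3, Nefm and Syn1 were higher at the high dose in each of the 3 sets, which is 3 of 9 members beside 15.1% of all genes. Snap25 differed by -0.09, -0.19 and -0.04, and Rbfox3 by -0.30, -0.04 and 0.48. With the letter sets as a block and G left out, Tubb3 stood at 0.26 on the log2 scale (SE 0.10, edgeR adjusted p of 0.477) and was the 1 member of 9 with an unadjusted p under 0.05, beside 9.43% of all genes. That fit called 15 of 12337 genes (0.122%) and no member.

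The comparison of high with low dose holds no untreated culture, although G entered the model that all cultures share. No member was called (0 of 9 beside 0% of all genes), 0 of 9 had an unadjusted p under 0.05 beside 1.17% of all genes (143 genes), and DESeq2 called 1 gene and no member. The largest log2 fold change was that of Map2, at 0.52 (SE 0.30), with 516 ± 110.3 CPM at the high and 363 ± 117 CPM at the low dose (SD, n = 4 each). Syn1 followed with 0.44 (SE 0.37; 355 ± 76.4 against 272 ± 94.6 CPM), Nefm with 0.37 (SE 0.40; 344 ± 60.4 against 274 ± 60.7 CPM) and Syt1 with 0.32 (SE 0.40; 282 ± 46.0 against 230.2 ± 64.9 CPM). Tubb3 had 0.24 (SE 0.19), Rbfox3 0.18 (SE 0.51), Nefl 0.12 (SE 0.56), Stmn2 0.12 (SE 0.24) and Snap25 -0.07 (SE 0.48). The median was 0.24 beside -0.01 over all genes. None of the 9 genes had every high dose culture above every low dose culture, as 0.668% of all genes did.

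Map2, Nefm, Syt1 and Syn1 were higher at the high dose in each of the 4 sets, which is 4 of 9 members beside 11.7% of all genes tested. With CPM by total count alone or by DESeq2 size factors the count was 5 of 9. On the log2(CPM + 1) scale Map2 was higher by 0.40 (A set), 1.02 (G set), 0.36 (M set) and 0.39 (P set). Syn1 differed by 0.23, 0.23, 0.65 and 0.58, Nefm by 0.15, 0.21, 0.53 and 0.44, and Syt1 by 0.02, 0.55, 0.36 and 0.34. Snap25, like Syt1 and Syn1 a gene of vesicle release, differed by -0.08, -0.18, 0.02 and -0.04, and Stmn2 by 0.02, -0.09, 0.33 and 0.05. For Snap25 and Stmn2 the sign thus differed between sets. It also did for Tubb3 (-0.006 in the G set), Rbfox3 (-0.11 in the A set) and Nefl (-0.09 in the A set), each higher at the high dose in the remaining sets.

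**Figure D4:**
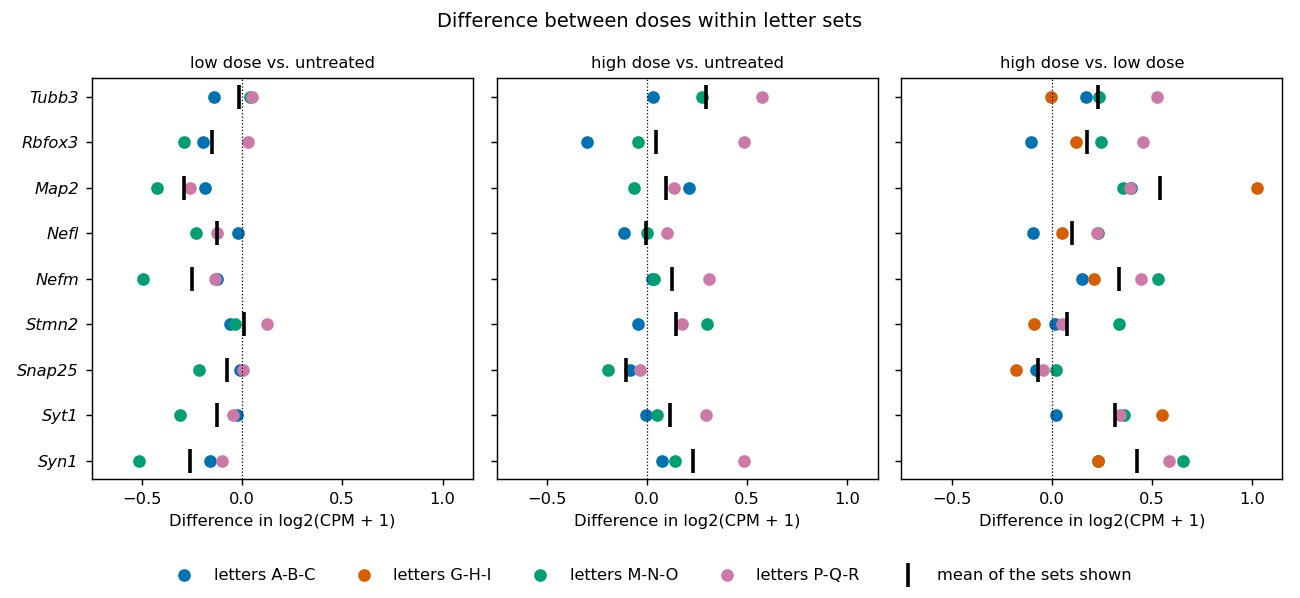
Difference in log2(CPM + 1) between doses within letter sets for each of the 9 genes (a point per set, a bar at the mean of the sets shown), with the G set left out of both comparisons with untreated cultures because it holds G. Map2, Nefl, Nefm, Syt1 and Syn1 lie below 0 in each of the 3 sets in the left panel, and Map2, Nefm, Syt1 and Syn1 lie above 0 in each set in the right panel.

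With the letter sets as a block and G left out, the standard errors of these differences were smaller and still no member was called. The log2 fold change of high vs. low dose was 0.54 for Map2 (SE 0.11, adjusted p = 0.0971 from edgeR), 0.42 for Syn1 (SE 0.09, adjusted p = 0.127), 0.33 for Nefm (SE 0.08, adjusted p = 0.141), 0.32 for Syt1 (SE 0.08, adjusted p = 0.162) and 0.24 for Tubb3 (SE 0.09, adjusted p = 0.319). Those 5 of 9 members had an unadjusted p under 0.05 beside 13.6% of all genes, and 14 of 12337 genes (0.113%) were called. Rbfox3, Nefl, Stmn2 and Snap25 had log2 fold changes of 0.19, 0.10, 0.08 and -0.07. Leaving out low dose H lowered that of Map2 from 0.52 to 0.34 in the model with all other cultures.

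Genes with related roles were tested in the model of all 12 cultures, and none was called there in any of the 3 comparisons. With the letter sets as a block and G left out, 1 gene was called among the lists of 28, 30 and 35 genes, in high vs. low dose. Over all genes that fit called 14 of 12337 (0.113%) in this comparison. The gene was Scg2, which encodes the granule protein secretogranin II. Scg2 was lower at the high dose (148 ± 120 CPM) than at the low dose (364 ± 305 CPM, SD, n = 4 each). Its log2 fold change in that fit was -1.20 (SE 0.13, edgeR adjusted p of 0.0071). The values that follow are of the model of all 12 cultures. In high vs. low dose, the log2 fold change was above 0 for 22 of 28 genes of the cytoskeleton and growth (median 0.13), 20 of 30 genes of identity and RNA binding (median 0.06) and 28 of 35 genes of vesicle release (median 0.13), beside -0.01 over all genes. Higher in each of the 4 letter sets were 10, 7 and 10 of them, beside 11.7% of all genes tested. Map1b, a microtubule-associated protein of growing axons, was at 1451 ± 55.7 CPM at the high and 1043 ± 196 CPM at the low dose (log2 fold change 0.47, SE 0.23), and Gap43, the growth cone protein, at 83.4 ± 6.98 and 108 ± 24.3 CPM (-0.37, SE 0.15). L1cam, an adhesion molecule of axons, was at 63.8 ± 7.75 and 51.2 ± 13.4 CPM (0.37, SE 0.20), and Elavl3, a neuronal RNA-binding protein, at 108 ± 6.48 and 93.9 ± 15.2 CPM (0.23, SE 0.11). Of the vesicle genes, Syn3 was at 9.96 ± 1.17 and 7.13 ± 1.22 CPM (0.46, SE 0.23) and Cplx2 at 40.8 ± 11.8 and 27.6 ± 1.98 CPM (0.59, SE 0.36). Of the most abundant genes of the lists, those given here had log2 fold changes of 0.16 for Tuba1a, 0.14 for Tubb2a, 0.02 for Eno2 and 0.01 for Vamp2. The adjusted p of each of these 10 genes was 0.99997 (edgeR).

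Markers of other cells were set beside the neuronal genes. Of 10 astrocyte markers tested, 2 were lower and 0 higher at the high dose in all 4 sets (11.1% and 11.7% of all genes), with a median difference of -0.21, and the summed level was 3375 to 11945 CPM at the low and 2242 to 8425 CPM at the high dose. Of 8 OPC markers 3 were higher in all 4 sets, with a median of 0.08 and sums of 908 to 3091 and 934 to 2978 CPM. Oligodendrocyte, microglial, fibroblast and vessel, and cycling cell markers had medians of 0.03, -0.01, -0.38 and 0.19. Over the 11 cultures other than G, which share letter sets and doses, the correlation of the summed markers with the mean of the 9 genes was -0.74 for astrocytes, -0.58 for OPCs, -0.28 for oligodendrocytes, 0.62 for microglia, -0.15 for fibroblasts and vessels and -0.39 for cycling cells. The part of these cells in the neuronal differences was not tested.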

How the data were processed

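Poly(A) RNA libraries of 12 cultures were sequenced, and the authors aligned reads to rat build rn6 (STAR) and summed them over genes (featureCounts). What they deposited are raw counts in whole numbers. The annotation and strand setting are not given in the sources used here. Cultures were grouped by the agent in their labels. Whether they came from separate cell preparations is not stated, so p-values measure the spread between these cultures.

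The 9 members, the related lists and the marker lists were chosen with earlier results of these data known. TMM gave the library scaling, and filterByExpr removed genes of low counts. The study names RUVseq and edgeR without the procedure, so 1 RUVs factor (41.0% of the variation within conditions) was fitted with the 3 conditions, and the quasi-likelihood test of edgeR 4.0.16 (R 4.3.3) was run over all genes with Benjamini-Hochberg adjustment. Calls needed an adjusted p under 0.05 together with a change beyond 0.5 on the log2 scale. Levels per culture are on the log2(CPM + 1) scale, with 3 counts as the floor. Cultures of one letter set deviated together from their dose means (r of 0.53 to 0.91, mean 0.78, in 10 pairs without G, across genes). In 30 pairs of another letter set and another dose, r was -0.63 to 0.59 (mean -0.25), so the 2 ranges overlapped. Deviations from a dose mean sum to 0, which pushes pairs across sets below 0. The mean of -0.25 is thus no independent contrast. Values with these sets as a block are printed beside the main fit. The alternatives were no factor, 2 factors, the likelihood ratio test, DESeq2 1.42.0, its size factors in edgeR, no filter, only the cultures compared, the block with and without G, and each culture left out. Named were all members, and of each related list the 2 genes of highest mean level and the 2 of smallest p in high vs. low dose, of which some are not reported here. Kif5a, Ina, Tubb2b, Chgb, Reln, Cplx1, Syn2, Syt4 and Scg2 were named after their values were seen.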

Additional observations from a re-analysis of the deposited data

Results flagged for a closer look

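Within each condition, the highest and the lowest culture of every member were compared with the next, as the gap divided by the whole range of the 4 cultures on the log2(CPM + 1) scale. Of 27 groups tested 4 exceeded the 95% critical value of Dixon for 4 values, and all 4 were the low value of untreated culture G. Chance passes it in about 1 of 20 independent groups, but these groups are genes of the same cultures and G had been set apart beforehand, so the 4 are a description of G and no further evidence. The gap was 0.885 of the range for Rbfox3 (1.297 CPM, next 59.4 CPM), 0.887 for Nefl (5.19 CPM, next 226 CPM), 0.8996 for Nefm (13.1 CPM, next 253 CPM) and 0.910 for Snap25 (19.3 CPM, next 623 CPM). The other 5 members were also lowest in G and did not exceed the limit. None of the 18 groups at the low and high dose did.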

How the results depend on the processing

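The count of members called was 0 in each comparison under every alternative run. Of all genes, high dose vs. untreated had 1 call with 2 RUVs factors, 2 with the likelihood ratio test, 3 with DESeq2 and 15 with the replicate block by letter sets and G left out, while high vs. low dose had 1, 0, 1 and 14, against 0 in the reported fit. The median log2 fold change of the members in that block fit was -0.15 for low dose vs. untreated and 0.12 for high dose vs. untreated. With each culture left out in turn, it lay between -0.066 (without G) and 0.74 (without A) for low dose vs. untreated, between 0.12 (without G) and 1.04 (without M) for high dose vs. untreated, and between 0.13 (without Q) and 0.55 (without N) between the doses. The cause was not tested.

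Of 189 log2 fold changes of members over the alternatives in each comparison, the sign changed in 15 for low dose vs. untreated, 3 for the high dose against untreated and 8 for high vs. low dose, none of them called. In low dose vs. untreated, the block without G gave -0.15 for Rbfox3, -0.11 for Nefl, -0.23 for Nefm, -0.054 for Snap25, -0.16 for Syt1 and -0.22 for Syn1, and the replicate block with all cultures 0.057 for Map2. Leaving out each culture gave -0.066 to 1.17 for Rbfox3, -0.47 to 0.20 for Map2, -0.10 to 0.86 for Nefm, -0.20 to 0.77 for Syt1 and -0.20 to 0.72 for Syn1, with the lowest value without G. In high dose vs. untreated, the block without G gave -0.011 for Nefl and -0.12 for Snap25, and Snap25 ranged from -0.028 (without G) to 1.17. In high dose vs. low dose, leaving out each culture gave -0.10 to 0.60 for Rbfox3, -0.20 to 0.55 for Nefl and -0.33 to 0.29 for Snap25, from without O to without N. Map2, Nefm, Syt1, Syn1, Tubb3 and Stmn2 kept their sign in this comparison. With an offset of 0.1 CPM the log2 difference of Rbfox3 in G was -5.71 in place of -5.01, with 20 counts in G.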
